A study of Mus musculus with 30 samples.

Results

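The genes described here are the G protein-coupled receptors whose mouse symbols begin with Gpr and a number, most of them orphan receptors when named, and the adhesion receptors, whose symbols begin with Adgr, a subfamily letter and a number. Both sets were taken from the gene table by symbol alone, which gave 101 of its 25611 rows, 75 Gpr and 26 adhesion genes. Of these, 67 passed the filter on low counts (47 Gpr and 20 adhesion genes) and were tested, and 34 did not. RNA was sequenced from dendritic cells that had been cultured out of mouse bone marrow over 6 to 7 days with 200 ng/ml of FLT3L. The marrow was Rubcn knockout (KO) or wild type (WT), and the Rubcn protein acts in LC3-associated phagocytosis. The 10 groups, of 3 libraries each, were untreated cells and cells exposed for 30 min or 4 h to ovalbumin protein (OVA) or to dying (apoptotic) cells of the Jurkat line, which comes from a human T-cell leukaemia. All groups share the FLT3L culture, and the labels used here name no strain, age or Cre driver for either genotype. The labels do not say whether libraries came from separate mice, so p-values measure only the spread between these libraries, and KO and WT can also differ by single mice or cultures.

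G protein-coupled receptors cross the membrane 7 times and pass the binding of a ligand to heterotrimeric G proteins, after which receptor kinases and arrestins switch them off. In dendritic cells such receptors read chemoattractants, lipids, metabolites, nucleotides and pH, and set where the cells go and how they mature. Adhesion receptors carry a long extracellular part that is cut from the transmembrane part by a self-cleaving domain, and they bind proteins of other cells or of the matrix. Gpr183, also called EBI2, guides dendritic cells and B cells along oxysterol gradients, and Adgre5, also called CD97, binds CD55 on blood cells and stroma.

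The libraries held 9.73 M to 51.6 M counts (median 44.9 M), fewest in KO library 3 of 30 min of OVA. A count of 0 allows a level of up to 0.0556 CPM (counts scaled to a library of 1 M) in the deepest library and 0.29 CPM in that one. Rubcn was lower in KO in each condition with no overlap of libraries, from 70.4 to 75.8 CPM in untreated KO and 95.6 to 105 CPM in untreated WT. KO libraries thus kept most of the Rubcn RNA, and the labels used here do not say which exons were deleted, so these levels check the genotype labels only in part. The defining dendritic cell genes were all present, and the 7 of them summed to 20200 to 23000 CPM in untreated WT and 20900 to 22800 CPM in untreated KO. Other lists differed by genotype in untreated cultures. Stromal genes (8 listed) summed to 558 to 640 CPM in WT and 720 to 901 CPM in KO, basophil or mast cell genes (8 listed) to 147 to 158 and 193 to 221 CPM, and plasmacytoid dendritic cell genes (8 listed) to 2290 to 2320 and 2020 to 2150 CPM. Genes of mature or migratory dendritic cells (6 listed) summed to 483 to 522 CPM in untreated WT and 362 to 371 CPM in untreated KO, and to 6120 to 6570 and 6300 to 6770 CPM after 4 h of Jurkat cells. Their part in the receptor changes was not tested. A list of 20 T-lineage genes, followed as a sign of reads from the Jurkat cells, summed to 96 to 102 CPM in untreated WT, 155 to 162 CPM after 30 min and 221 to 265 CPM after 4 h of Jurkat cells. In KO the same sums were 107 to 114, 130 to 144 and 186 to 212 CPM. In whole cultures, fewer cells of a type and less RNA per cell cannot be told apart.

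Gpr84 had the largest rise in WT among the receptors that reached 1 CPM. Adgrg1 is an adhesion receptor that rose with Jurkat cells, and Gpr35 was higher in KO in every condition. The promoters of these 3 genes are shown, and each holds at least 1 of the words searched for. Each is 300 bases of RefSeq on GRCm38.p6 (mm10), 250 before and 50 after an annotated start, 5′ to 3′ on the gene's strand, with matches in capitals. Both strands were searched for GGGACTTTC or GGGAATTTC (kappaB words), TGAGTCA or TGACTCA (AP-1 words), GAAANNGAA (the core of the interferon-stimulated response element) and TGACGTCA (the cyclic AMP response element).
Gpr84, chr15:103310389-103310688, minus strand: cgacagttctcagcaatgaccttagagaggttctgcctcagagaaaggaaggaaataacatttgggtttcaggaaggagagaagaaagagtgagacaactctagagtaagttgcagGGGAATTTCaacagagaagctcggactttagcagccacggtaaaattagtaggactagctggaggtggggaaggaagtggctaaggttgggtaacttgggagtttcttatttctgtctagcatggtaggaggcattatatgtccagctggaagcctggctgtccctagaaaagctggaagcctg
Adgrg1, chr8:94984149-94984448, plus strand: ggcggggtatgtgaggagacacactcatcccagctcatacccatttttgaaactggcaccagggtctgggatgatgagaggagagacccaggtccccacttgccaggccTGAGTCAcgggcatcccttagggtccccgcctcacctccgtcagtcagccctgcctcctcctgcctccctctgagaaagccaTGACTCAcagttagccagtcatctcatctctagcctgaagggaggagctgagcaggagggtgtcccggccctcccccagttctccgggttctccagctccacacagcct
Gpr35, chr1:92978653-92978952, plus strand: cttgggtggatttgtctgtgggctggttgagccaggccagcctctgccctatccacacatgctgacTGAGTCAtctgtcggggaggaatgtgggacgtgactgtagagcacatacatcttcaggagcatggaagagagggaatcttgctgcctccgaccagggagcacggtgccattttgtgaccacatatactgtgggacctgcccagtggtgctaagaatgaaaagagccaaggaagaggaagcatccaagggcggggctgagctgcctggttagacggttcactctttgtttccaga
The capitals mark GGGAATTTC at position -134 from the Gpr84 start, TGAGTCA at -141 and TGACTCA at -59 from the Adgrg1 start, and TGAGTCA at -184 from the Gpr35 start. Adgrg1 and Gpr35 have a further annotated start with no match to any of the words. A promoter was found for 71 of the 101 receptor genes and for 49 of the 67 tested, with 65 promoters for the latter. The kappaB words stood in 1 of these 65 (1.54%), that of Gpr84, and in 201 of all 32851 promoters (0.612%). The AP-1 words stood in 5 receptor promoters (7.69%, against 5.2% of all), the response element core in 8 (12.3%, against 8.56%), and the cyclic AMP word in 0 of 65, against 1.79% of all. No match was found for Gpr132, Adgra2, Gpr183, Adgre5, Gpr25 or Gpr176, so the 3 promoters shown do not stand for the receptors at large. A match is a word in a window and not a binding site, and a link of the words to any change was not tested.

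Most of these receptors were low, and a few stood well above the rest. Averaged over all 30 libraries, 4 genes were at 100 CPM or more, 30 between 10 and 100, 13 between 1 and 10, and 54 below 1 CPM. The median of the tested receptors was 10.6 CPM, against 20.99 CPM for all genes tested. The highest by mean were Adgre1 at 284.3 CPM, Gpr132 at 241.2 CPM, Gpr171 at 166.5 CPM and Gpr146 at 105.6 CPM. Adgre1 encodes F4/80, a surface marker of mouse macrophages. Among the 34 untested genes no library passed 0.3935 CPM, and 4 of them (Gpr101, Gpr139, Gpr26 and Gpr6) had no count in any library.

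Levels of different genes were compared per kilobase of the exons that GENCODE annotates on the same build. On that scale Gpr132 stood at 88.8 CPM per kb, Adgre1 at 87.8, Gpr171 at 74.8, Gpr183 at 31.1, Gpr108 at 30.3, Gpr65 at 19.1 and Adgre5 at 17.2 CPM per kb. Adhesion genes are the longer ones, with a median exon length of 5598 bp against 3595 bp for Gpr genes. Their median annotated span, introns included, is 72.3 kb against 10.6 kb. All receptor rows together summed to 1925 ± 18.7 CPM in untreated WT (SD, n = 3) and 1910 ± 18.5 CPM in untreated KO. The sums at 4 h of Jurkat cells were 2530 ± 106 CPM (WT) and 2486 ± 59.8 CPM (KO). The 5 receptors highest by mean over all 30 libraries, a fixed set, held 50.7% and 49.8% of these sums. In untreated cells the same 5 held 39.8% and 39.7%.

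**Figure D1:**
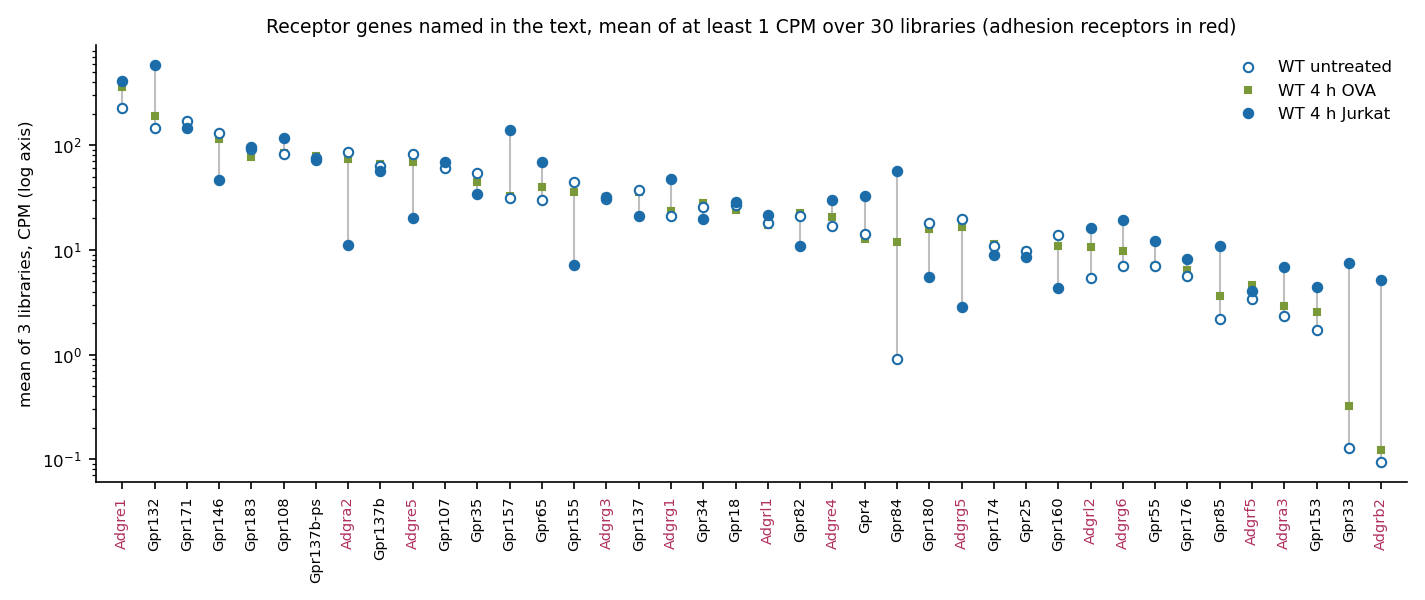
Mean CPM of 3 WT libraries (log axis) for the receptor genes named in the text with at least 1 CPM over all libraries, in untreated cells (open circles), after 4 h of OVA (squares) and after 4 h of Jurkat cells (filled circles), ordered by mean. Gpr84 rose from 0.914 to 56.7 CPM and Adgra2 fell from 86.2 to 11.02 CPM, while most OVA values lie close to the untreated ones.

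Each treatment was compared with untreated cells of the same genotype by edgeR's quasi-likelihood F test, and a gene was called at a Benjamini-Hochberg FDR under 0.05, adjusted over the 14808 genes tested. In WT, 30 min of OVA changed 6 of 67 receptors (4 higher, 2 lower), which is 8.96%, against 10.7% of all genes tested. Jurkat cells changed 19 at 30 min (10 higher, 9 lower), or 28.4% against 28.7%. At 4 h, OVA changed 22 (12 higher, 10 lower), or 32.8% against 23.5%, and Jurkat cells changed 50 (30 higher, 20 lower), or 74.6% against 79.5%. In KO, the counts were 5 (4 higher, 1 lower) with 30 min of OVA against a background of 3.77%, and 13 (8 higher, 5 lower) with 30 min of Jurkat cells against 17%. At 4 h they were 15 (8 higher, 7 lower) with OVA against 11.6%, and 57 (34 higher, 23 lower), or 85.1%, with Jurkat cells against 78.5%. Receptors thus changed about as often as other genes with Jurkat cells in WT.

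Libraries given Jurkat cells for 4 h had TMM factors of 0.765 to 0.842, against 1.03 to 1.07 in the others. With scaling by total counts, the all-gene median was -0.42 (log2) in WT and -0.37 in KO there, and the receptor calls split into 26 higher and 29 lower in WT and 25 higher and 31 lower in KO. After 30 min of Jurkat cells in KO that scaling gave 8 higher and 8 lower. Directions at 4 h of Jurkat cells are therefore relative to the TMM scaling. Leaving out KO 30 min OVA replicate 2 left 1 receptor called with 30 min of OVA in KO, and leaving out KO 4 h OVA replicate 1 left 9 called with 4 h of OVA in KO. Receptors called in both genotypes moved the same way in 3 of 3 cases with 30 min of OVA, 10 of 10 with 30 min of Jurkat cells, 14 of 14 with 4 h of OVA and 48 of 49 with 4 h of Jurkat cells. The exception was Gpr137b. The share of all genes that moved the same way was not counted, so this agreement cannot be read as a trait of these receptors.

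Among receptors of fatty acids and metabolites, Gpr84, a receptor of medium-chain fatty acids known to be induced in myeloid cells by inflammatory stimuli, rose in every treatment. It lies at chr15:103308235-103310438 on the minus strand (mm10). Its level in the 3 untreated WT libraries was 1.07, 0.755 and 0.918 CPM, at 30 min of OVA 2.95, 3.22 and 3.26 CPM and with Jurkat cells at that time 2.19, 2.35 and 1.803 CPM. At 4 h the OVA libraries were at 12.7, 13.6 and 9.41 CPM and the Jurkat libraries at 54.9, 61.1 and 54.1 CPM. Every treated WT library stood above every untreated one, and the libraries given Jurkat cells for 4 h stood above all others. The log2 fold changes were 1.78 (SE 0.22, edgeR FDR 2.68e-06) and 1.20 (FDR 0.000354) at 30 min, and 3.69 (FDR 3.59e-15) and 5.95 (SE 0.162, FDR 1.62e-23) at 4 h. In KO it was at 0.819, 0.746 and 0.822 CPM untreated, 7.63, 6.97 and 8.65 CPM after 4 h of OVA and 65.97, 57.6 and 56.5 CPM after 4 h of Jurkat cells (log2 3.28 and 6.23). The Gpr84 promoter shown above is the only promoter of a tested receptor that held a kappaB word. In GENCODE, 39.5% of the exon bases of Gpr84 also lie in a gene of the opposite strand that has no row in the table. The library kit does not mark strand, so reads of that stretch cannot be assigned.

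Gpr35, a receptor of tryptophan metabolites and lysolipids, moved the other way. It stood at 54.1, 54.4 and 55.2 CPM in untreated WT, 44.99, 42.9 and 45.1 CPM after 4 h of OVA and 34.9, 34.7 and 32.5 CPM after 4 h of Jurkat cells, with no overlap between these groups (log2 -0.30, FDR 2.43e-05, and -0.68, FDR 2.67e-13). In KO it fell too, with log2 changes of -0.28 and -0.53. Gpr31b, a receptor of a hydroxylated fatty acid, stayed under 1 CPM throughout and was at 0.0358 CPM in untreated WT and 0.704 CPM after 4 h of Jurkat cells. Gpr119, a receptor of fatty acid amides, was not tested.

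Among proton-sensing receptors and their relatives, Gpr132, Gpr65 and Gpr4 rose after 4 h of Jurkat cells in each genotype. Gpr132 (chr12:112850876-112860916, minus strand), which responds to lysolipids and oxidised fatty acids, was at 139, 149 and 153 CPM in untreated WT and 573, 587 and 584 CPM after 4 h of Jurkat cells. The groups lie far apart, and the log2 fold change was 1.98 (SE 0.0548, edgeR FDR 2.28e-23) in WT and 2.01 in KO. With 4 h of OVA it rose by 0.37 in WT. Gpr65, an acid sensor of lymphocytes and myeloid cells, rose in WT with every treatment, from 32.9, 29.6 and 28.2 CPM untreated to 42.99, 39.3 and 37.7 CPM with 4 h of OVA and 64.9, 72.8 and 70.3 CPM with 4 h of Jurkat cells (log2 0.40 and 1.20). Gpr4, an acid sensor best known from endothelium, was at 13.4, 13.99 and 15.02 CPM untreated, 11.9, 12.7 and 13.3 CPM with 4 h of OVA and 33.3, 32.5 and 31.8 CPM with 4 h of Jurkat cells. It was called with Jurkat cells at 4 h (log2 1.20, FDR 1.5e-15) and not with OVA (-0.17, FDR 0.106).

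Endothelial genes (6 listed) summed to 207 to 215 CPM in untreated WT and 1140 to 1390 CPM after 4 h of Jurkat cells, of which Kdr was 1074 CPM, while Emcn and Tek stood at 0.01001 and 0.00874 CPM. Their part in the rise of Gpr4 was not tested.

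**Figure D2:**
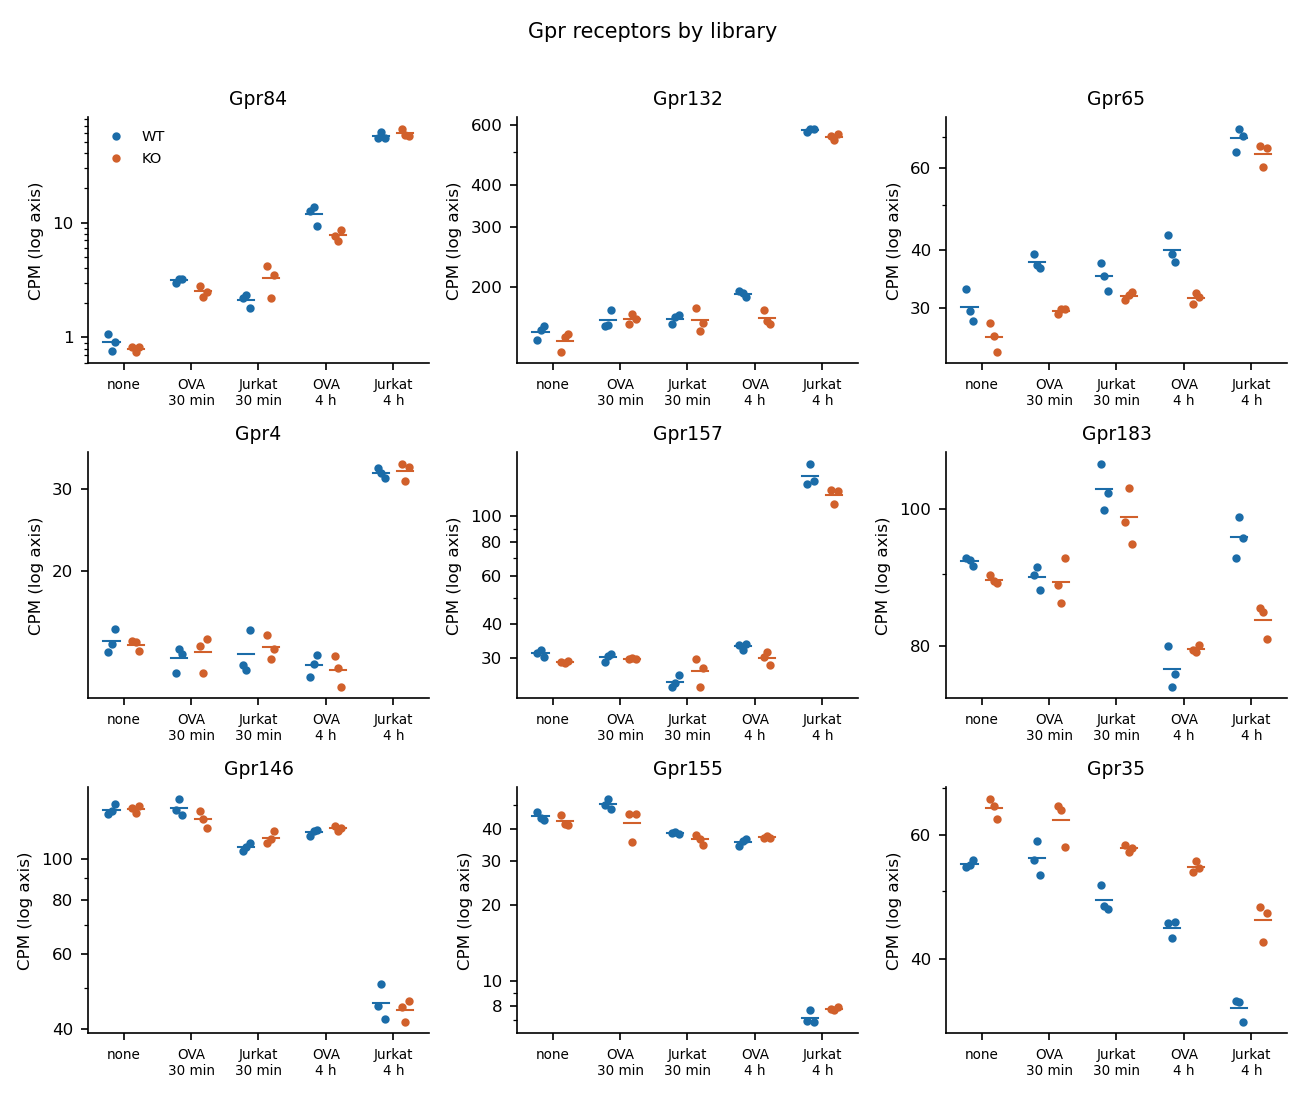
CPM (log axis) of 9 Gpr receptors in each library, WT in blue and KO in orange, with a line at the mean of 3 libraries. Gpr84, Gpr132, Gpr65, Gpr4 and Gpr157 are highest in the libraries given Jurkat cells for 4 h, Gpr146, Gpr155 and Gpr35 are lowest there within each genotype, and the means of Gpr183 stay between 77.1 CPM (WT, 4 h OVA) and 103 CPM (WT, 30 min Jurkat).

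Gpr183 changed little while genes for its ligand changed a great deal. The gene lies at chr14:121952331-121965193 on the minus strand. It stood at 92.4, 91.9 and 91.2 CPM in untreated WT and 89.8, 88.9 and 88.6 CPM in untreated KO. In WT it was at 80.1, 74.9 and 76.4 CPM after 4 h of OVA, below every untreated library (log2 -0.25, SE 0.037, edgeR FDR 7.44e-06), and at 108, 99.7 and 103 CPM after 30 min of Jurkat cells, above them (log2 0.17, FDR 0.000841). After 4 h of Jurkat cells it was at 92.4, 98.7 and 95.4 CPM, which overlaps untreated WT and was not called (log2 0.06, FDR 0.164). In KO that level was 85.05, 84.5 and 80.96 CPM, lower than in WT without overlap (log2 -0.19, FDR 0.000407). The KO fall from untreated cells, -0.09 on the log2 scale, was not called in 4 of 8 alternative settings or without KO 4 h Jurkat replicate 3. The 4 were DESeq2, its size factors in edgeR, the stricter filter and the compared groups alone. Levels at 4 h of Jurkat cells are relative to the TMM scaling.

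Of 6 genes for enzymes that make or remove the oxysterol ligand, 3 rose and 2 fell after 4 h of Jurkat cells in each genotype, against 79.5% (WT) and 78.5% (KO) of all genes called. Ch25h, which makes the precursor of the ligand, went from 0.579, 0.647 and 0.653 to 13.4, 17.8 and 14.6 CPM in WT (log2 4.60, SE 0.208, edgeR FDR 3.17e-18). Cyp7b1, whose enzyme turns that precursor into the ligand, went from 1.22, 0.755 and 0.918 to 5.06, 6.13 and 5.89 CPM (log2 2.56). Hsd3b7, whose enzyme removes the ligand, fell from 46.5, 49.3 and 47.2 to 21.3, 22.9 and 21.4 CPM (log2 -1.12, FDR 4.18e-19). Cyp27a1, which hydroxylates sterols at another carbon, fell from 152 to 31.2 CPM (log2 -2.28). Both genes of ligand synthesis were therefore higher and the gene of its removal lower, with groups that did not overlap. In KO the log2 fold changes were 4.29, 2.81, -0.87 and -2.32, and the fall of Hsd3b7 differed between genotypes (interaction 0.26, FDR 0.0236). Hsd11b1, which acts on a related sterol, was lower in KO in all 5 conditions, at 1.53, 1.22 and 1.16 CPM in untreated KO and 2.38, 2.11 and 1.88 CPM in WT (log2 -0.70, FDR 0.00527).

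Gpr18 lies 36.6 kb from Gpr183 on chromosome 14, on the same strand, and both lie within Ubac2 of the other strand with no shared exon bases. Its proposed ligands are N-acyl amino acids. Its level was 27.3, 27.2 and 25.7 CPM in untreated WT and 25.4, 31.4 and 28.8 CPM after 4 h of Jurkat cells, which was not called (log2 0.09, edgeR FDR 0.204), and at 30 min of them the log2 change of -0.27 was called. No KO against WT comparison called it.

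Receptors of lysophospholipids other than Gpr132 went in different directions at 4 h of Jurkat cells. Gpr55, a receptor of lysophosphatidylinositol, rose from 7.57, 7.05 and 6.33 to 11.4, 14.2 and 11.3 CPM in WT (log2 0.81, edgeR FDR 6.92e-09) and by the same 0.81 in KO. Gpr34, a receptor of lysophosphatidylserine, fell from 30.9, 25.7 and 21.3 to 20.3, 18.7 and 19.7 CPM (log2 -0.41, FDR 0.00382). Gpr174, of the same ligand, was at 10.98 and 8.96 CPM and was not called (log2 -0.29, FDR 0.0554). Gpr82, an orphan receptor 20.5 kb from Gpr34 on the X chromosome, fell with it, from 25.7, 19.6 and 18.4 to 10.1, 11.3 and 11.5 CPM (log2 -0.95, FDR 4.11e-08). Gpr171, a neuropeptide receptor that is also found on T cells, moved less, from 179.8, 172 and 165 CPM untreated to 139, 156 and 142 CPM after 4 h of Jurkat cells (log2 -0.24).

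Further orphan receptors stood out at 4 h of Jurkat cells. Gpr157 was at 31.4, 32.1 and 30.2 CPM in untreated WT, 23.4, 24.2 and 25.8 CPM after 30 min and 132, 156 and 135 CPM after 4 h (log2 -0.35 and 2.18, edgeR FDR 0.000329 and 2.17e-22). It was thus lower at 30 min and higher at 4 h than every untreated library. Gpr85, a brain-enriched receptor of the SREB family, rose from 2.34, 2.31 and 1.92 to 3.83, 3.76 and 3.28 CPM (OVA, 4 h) and 9.79, 11.8 and 11.02 CPM (Jurkat cells, 4 h), with log2 fold changes of 0.73 and 2.31. Gpr33, related to chemoattractant receptors, was at 0.134, 0.0862 and 0.163 CPM untreated and 6.03, 9.75 and 6.94 CPM after 4 h of Jurkat cells, and at 5.51, 3.89 and 5.22 CPM in KO (log2 5.85 and 6.24). With 4 h of OVA it stayed at 0.3201 CPM in WT and was not called. Gpr153 rose with Jurkat cells by 1.39 in WT and 1.53 in KO.

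Others fell. Gpr146, a liver receptor linked to cholesterol metabolism, went from 127, 129 and 134 CPM to 104, 106 and 109 CPM after 30 min and 45.3, 50.9 and 42.2 CPM after 4 h of Jurkat cells in WT (log2 -0.29 and -1.49, edgeR FDR 3.63e-05 and 2.29e-21). Gpr160 fell in both treatments at 4 h, from 13.6, 14.6 and 13.7 to 10.4, 11.1 and 10.8 CPM (OVA) and 3.99, 4.54 and 4.54 CPM (Jurkat cells), with log2 fold changes of -0.37 and -1.68. The groups of each of these genes did not overlap.

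Genes with Gpr symbols that encode proteins of inner membranes, or whose standing as receptors is uncertain, were mostly moderate in level. Of 10 listed, 9 were tested, and at 4 h of Jurkat cells 2 rose and 5 fell in WT and 4 rose and 5 fell in KO, beside 79.5% and 78.5% of all genes called. Gpr155, a cholesterol sensor of lysosomes, fell most, from 46.9, 44.2 and 43.6 to 6.95, 7.68 and 6.88 CPM (log2 -2.65, SE 0.0765, edgeR FDR 6.56e-23), and had been slightly lower after 30 min of Jurkat cells and 4 h of OVA (log2 -0.22 and -0.33). Gpr180 fell from 18.5, 17.98 and 17.2 to 5.96, 5.56 and 4.96 CPM (log2 -1.70), and Gpr137, a lysosomal membrane protein, from 34.6, 39.3 and 37.1 to 21.6, 20.5 and 21.5 CPM (log2 -0.80). Gpr108, a Golgi protein, rose from 77.7, 86.3 and 84.2 to 113, 124 and 119 CPM (log2 0.52), and its paralogue Gpr107 by 0.21. These directions are relative to the TMM scaling, and Gpr180 and Gpr107 were not checked with total counts. Gpr137b-ps is a pseudogene copy of Gpr137b, so reads of the pair cannot be assigned with certainty. Its level was 76.4 CPM in untreated WT, beside 63.5 CPM for Gpr137b.

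The EGF-TM7 group of adhesion receptors holds Adgre1, Adgre4 and Adgre5, and after 4 h of Jurkat cells 2 rose and 1 fell in each genotype, against 79.5% (WT) and 78.5% (KO) of all genes called. Adgre5, at chr8:83723251-83741311 on the minus strand, was at 80.4, 84 and 82.4 CPM in untreated WT, 75.2, 80.7 and 79.7 CPM after 30 min of Jurkat cells, 64.01, 65.9 and 77.5 CPM after 4 h of OVA and 20.4, 20.4 and 19.9 CPM after 4 h of Jurkat cells. The last libraries stood below all the others (log2 -2.02, SE 0.0594, edgeR FDR 9.25e-23, or 24.6% of untreated WT). In KO it went from 74.8, 70.9 and 75.8 to 22.2, 22.4 and 23.1 CPM (log2 -1.71). At 4 h of OVA the fall was -0.25 in WT. The 3′ end of Adgre5 overlaps exons of Ddx39 on the other strand, and 24.6% of its exon bases are shared with it and with Mir1668, so part of its reads could belong to Ddx39.

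Adgre1 rose, from 235, 231 and 211 CPM in untreated WT to 366, 385 and 332 CPM after 4 h of OVA and 397, 463 and 384 CPM after 4 h of Jurkat cells (log2 0.68, edgeR FDR 6.92e-08, and 0.88, FDR 9.16e-12). Neither treatment changed it at 30 min. Macrophage or monocyte genes (9 listed, Adgre1 included) summed to 2920 to 3160 CPM in untreated WT, 3660 to 3980 CPM after 4 h of OVA and 3230 to 3560 CPM after 4 h of Jurkat cells, and their part in the rise of Adgre1 was not tested. Adgre4, found on myeloid cells, rose from 18.2, 16.7 and 16.4 to 30.2, 33.4 and 27.2 CPM with 4 h of Jurkat cells (log2 0.83) and in KO from 12.7, 10.6 and 11.1 to 28.96, 27.2 and 29.1 CPM (log2 1.31).

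In the G subfamily 4 of 6 tested genes rose and 1 fell after 4 h of Jurkat cells in each genotype, a share near that of all genes (79.5% called in WT and 78.5% in KO). Adgrg5, Adgrg1 and Adgrg3 follow each other on chromosome 8, on 1 strand, with gaps of 33.8 and 3.48 kb, and went 3 ways. Adgrg5, found on leukocytes, fell from 19.3, 19.4 and 19.9 to 2.52, 3.65 and 2.43 CPM in WT (log2 -2.77, SE 0.113, edgeR FDR 2.48e-19). Adgrg1, also called GPR56, which binds collagen and transglutaminase, rose from 18.7, 22.9 and 22.2 to 49.98, 49.6 and 44.6 CPM (log2 1.17, FDR 1.82e-14). Adgrg3, a receptor of granulocytes, was at 27.6, 31.9 and 32.1 and 33.4, 29.5 and 32.98 CPM and was called in no treatment. Adgrg6, known from myelin formation, rose from 7.35, 7.01 and 6.53 to 10.3, 10.4 and 8.33 CPM with 4 h of OVA and 19.1, 22.2 and 16.9 CPM with 4 h of Jurkat cells (log2 0.48 and 1.48). Adgrg7 was at 0.2004, 0.366 and 0.204 CPM untreated and 2.18, 2.51 and 2.22 CPM after 4 h of Jurkat cells (log2 3.15), and Adgrg2 stayed under 1 CPM.

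Adgra2, also called GPR124, a co-receptor of Wnt signals in brain endothelium, had the largest fall in WT of any receptor that reached 1 CPM, while in KO that of Gpr155 was larger. It was at 80.8, 87.97 and 89.99 CPM in untreated WT, 70.3, 75.5 and 75.8 CPM after 4 h of OVA and 12.6, 9.03 and 11.5 CPM after 4 h of Jurkat cells (log2 -2.96, SE 0.0755, edgeR FDR 3.78e-24). Its close relative Adgra3 moved up, from 2.34, 2.52 and 2.18 to 6.53, 6.01 and 7.96 CPM (log2 1.54, FDR 1.94e-10). Among latrophilins, which bind teneurins and FLRT proteins, Adgrl2 rose with both treatments at 4 h, from 5.37, 5.52 and 5.31 CPM to 10.5, 10.6 and 10.8 CPM (OVA) and 16.1, 17.1 and 15.4 CPM (Jurkat cells), with log2 fold changes of 0.98 and 1.58. Adgrl1 went from 18.1 to 21.6 CPM, a rise of 0.25 (log2) with TMM that was -0.15 when scaled to total counts. Adgrf5, a surfactant-regulating receptor of the lung, was at 3.37 CPM and was not called in any comparison.

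**Figure D3:**
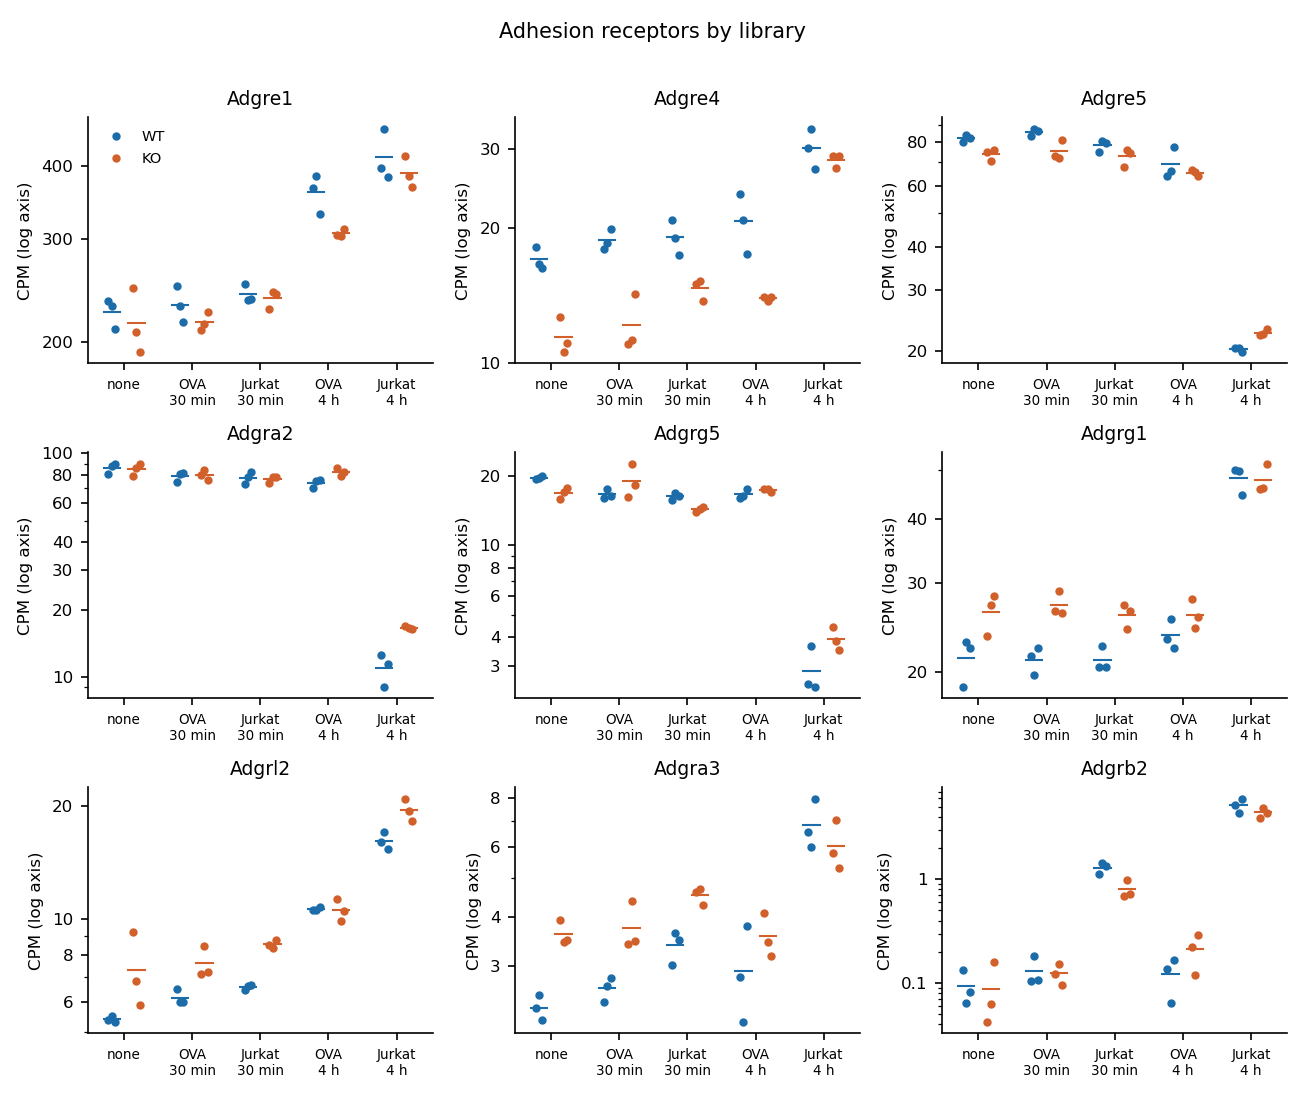
CPM (log axis) of 9 adhesion receptors in each library, WT in blue and KO in orange, with a line at the mean of 3 libraries. Adgre5, Adgra2 and Adgrg5 are lowest in the libraries given Jurkat cells for 4 h, and Adgrb2 is at most 0.2925 CPM in every library without Jurkat cells and at least 0.6934 CPM in every library with them.

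Adgrb2, an adhesion receptor of brain, was read in cultures with Jurkat cells and hardly without them. Its levels in WT were 0.134, 0.0647 and 0.0816 CPM untreated, 0.104, 0.183 and 0.106 CPM after 30 min of OVA, 1.12, 1.42 and 1.35 CPM after 30 min of Jurkat cells, 0.137, 0.0648 and 0.167 CPM after 4 h of OVA and 5.195, 4.37 and 5.98 CPM after 4 h of Jurkat cells. In KO it was at 0.693, 0.983 and 0.716 CPM after 30 min and 3.91, 4.899 and 4.38 CPM after 4 h of Jurkat cells. The log2 fold changes against untreated cells were 3.77 and 5.76 in WT (edgeR FDR 4.48e-10 and 6.24e-18) and 3.12 and 5.58 in KO. T-lineage genes showed the same order of groups: Lef1 was at 0.285, 17.2 and 38.4 CPM in WT (untreated, 30 min and 4 h of Jurkat cells) and Zap70 at 0.471, 11.7 and 35.2 CPM. In KO the levels were 0.267, 10.5 and 23.96 CPM for Lef1 and 0.7395, 6.78 and 25.9 CPM for Zap70. Of 19 T-lineage genes tested, 10 in WT and 9 in KO were called higher at 30 min of Jurkat cells. Of all genes 14.2% (WT) and 8.72% (KO) were called higher there. The medians (log2) of the T-lineage genes were 0.92 and 0.60, against -0.06 and 0.00 at 30 min of OVA. The part of Jurkat reads in Adgrb2, or in any other rise with Jurkat cells, was not tested. Gpr63, named here after its values were seen, had no count in untreated WT, 0.0903 CPM after 30 min and 0.371 CPM after 4 h of Jurkat cells, and 0.00617 CPM after 4 h of OVA.

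Jurkat cells were next set against OVA at the same time, with the genotypes averaged. At 30 min 19 receptors differed (9 higher, 10 lower with Jurkat cells), or 28.4%, against 29.9% of all genes, and 12 without KO 30 min OVA replicate 2. At 4 h 57 differed (33 higher, 24 lower), or 85.1%, against 82.6%, and with total counts the split was 25 higher and 32 lower. At 30 min Adgrb2 (log2 2.92) and Gpr183 (0.18, edgeR FDR 5.37e-06) were higher with Jurkat cells, and Gpr146 (-0.22, FDR 9.25e-06) was lower. At 4 h Gpr132 (1.70) and Gpr157 (2.05) were higher, and Adgra2 (-2.53) and Gpr155 (-2.28) lower, each with an FDR no larger than 2.51e-25. Gpr183 was higher by 0.19 at 4 h with TMM and at -0.18 with total counts.

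KO was compared with WT within each condition. Differences were small, and no receptor call reached a 2-fold difference. Untreated cells gave 11 calls (8 higher, 3 lower in KO), or 16.4% of the tested receptors, against 9.97% of all genes. Leaving out KO untreated replicate 3 gave 6 calls, and leaving out KO untreated replicate 2 or WT untreated replicate 1 gave 7. After 30 min of OVA 17 were called (11 higher, 6 lower), or 25.4% against 12.4%, and 8 without KO 30 min OVA replicate 2. After 30 min of Jurkat cells 12 were called (8 higher, 4 lower), or 17.9% against 9.25%, with 5 without KO 30 min Jurkat replicate 3 and 7 without replicate 1. After 4 h of OVA 10 were called (4 higher, 6 lower), or 14.9% against 12.6%, and total counts gave 6 higher and 4 lower. After 4 h of Jurkat cells 20 were called (12 higher, 8 lower), or 29.9% against 22.9%, and total counts gave 18 higher and 4 lower. That count was 11 without KO 4 h Jurkat replicate 2 or WT 4 h Jurkat replicate 2 and 13 without WT 4 h Jurkat replicate 3. Over the 5 conditions 37 of the 67 tested receptors were called at least once and 30 never. That is a larger share than among all genes tested, of which 5492 of 14808 (37.1%) were called at least once.

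Gpr25, Gpr176 and Gpr35 were called higher in KO in all 5 conditions, as were 215 of all genes tested (1.45%). No receptor was called lower in all 5, against 123 of all genes tested (0.831%). Gpr25 (chr1:136258914-136260873, minus strand), a receptor that guides lymphocytes to mucosal tissue, was at 9.85 ± 0.189 CPM in untreated WT (SD, n = 3) and at 13.5, 16.1 and 16.2 CPM in the untreated KO libraries (log2 0.63, SE 0.0689, edgeR FDR 2.5e-07). In the other conditions its log2 differences were 0.50 and 0.48 at 30 min of OVA and Jurkat cells and 0.48 and 0.39 at 4 h. Every KO library stood above every WT library of its condition. In GENCODE, 41.6% of its exon bases also lie in a gene of the opposite strand that has no row in the table.

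Gpr176, an orphan receptor of the circadian clock of the brain, was at 5.86, 5.41 and 5.67 CPM in untreated WT and 10.2, 8.52 and 8.23 CPM in untreated KO (log2 0.67, SE 0.101, edgeR FDR 3.74e-05). Its differences in the other 4 conditions ran from 0.41 to 0.73, and its libraries did not overlap in any condition. Gpr35 was at 67.7, 66.1 and 63.3 CPM in untreated KO, against 54.1, 54.4 and 55.2 CPM in WT (log2 0.27, FDR 0.000287), and the difference was widest after 4 h of Jurkat cells, at 47.5, 42.2 and 46.5 CPM in KO and 34.9, 34.7 and 32.5 CPM in WT (log2 0.42, FDR 1.47e-06). Its call at 30 min of OVA (log2 0.20) had overlapping libraries and was lost without KO 30 min OVA replicate 1 or 2.

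Adgrl2 was called higher in KO in 4 of 5 conditions. It was at 5.37, 5.52 and 5.31 CPM in untreated WT and 9.26, 6.82 and 5.91 CPM in untreated KO (log2 0.44, edgeR FDR 0.00533), a difference of 0.24 without KO untreated replicate 1, the highest library. At 4 h of OVA both genotypes stood at 10.6 and 10.6 CPM, with no call. Its calls at 30 min of OVA (log2 0.32, FDR 0.048) and after 4 h with Jurkat cells (0.27, FDR 0.0282) were lost when any 1 of 5 of the 6 libraries, and any 1 of 4 of the 6, was left out. The call at 30 min of Jurkat cells (0.38, FDR 0.0154) was lost without KO 30 min Jurkat replicate 3 or WT 30 min Jurkat replicate 1.

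Adgre4 was the receptor most often lower in KO, in 4 of 5 conditions. It stood at 12.7, 10.6 and 11.1 CPM in untreated KO against 18.2, 16.7 and 16.4 CPM in WT (log2 -0.58, SE 0.0951, edgeR FDR 0.000126), with differences of -0.69 and -0.38 at 30 min of OVA and Jurkat cells and -0.57 at 4 h of OVA. The call at 30 min of Jurkat cells was lost without KO 30 min Jurkat replicate 3 or WT 30 min Jurkat replicate 1. After 4 h of Jurkat cells KO and WT overlapped, at 28.96, 27.2 and 29.1 and 30.2, 33.4 and 27.2 CPM, with no call (-0.09, FDR 0.5).

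**Figure D4:**
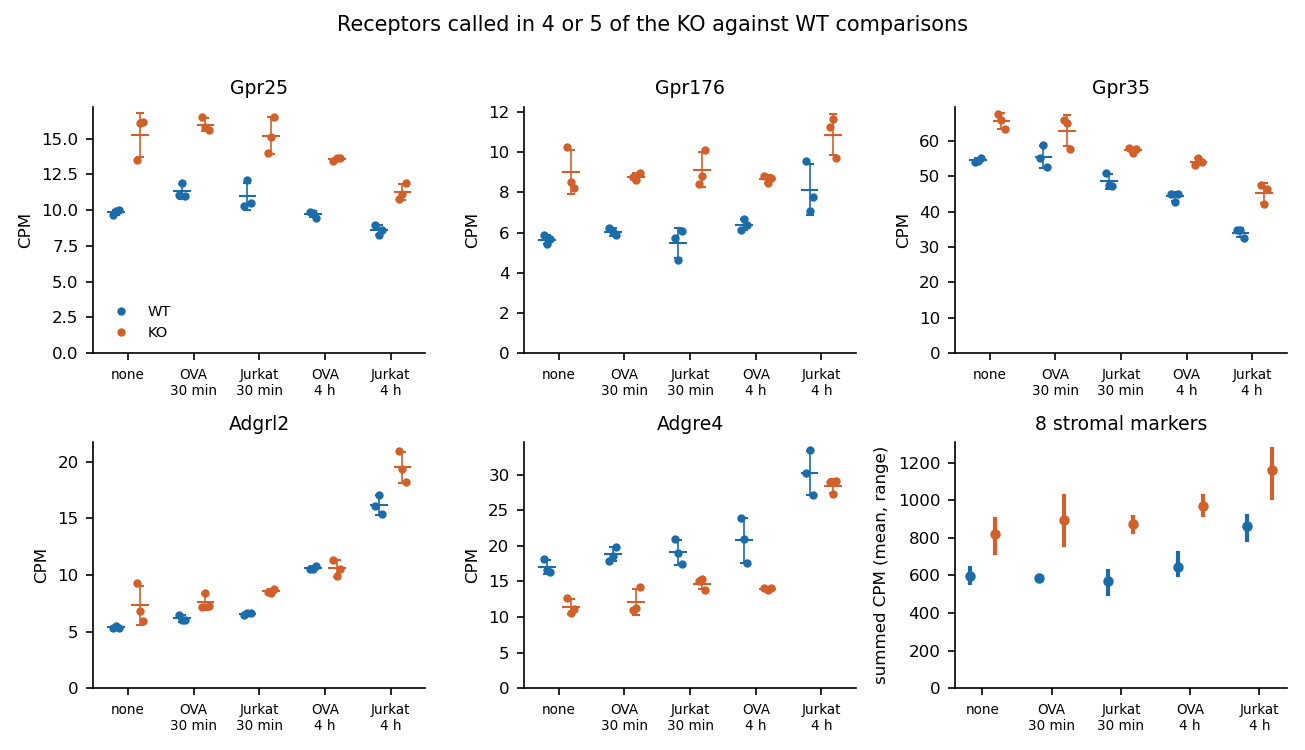
CPM in each library (points, with mean and SD of 3 libraries) of the 5 receptors called in 4 or 5 of the KO against WT comparisons, and the mean and range of the summed CPM of 8 stromal markers. Gpr25 and Gpr176 are higher in all KO libraries than in the WT libraries of the same condition, as is Gpr35 except after 30 min of OVA, Adgre4 is lower except after 4 h of Jurkat cells, and the stromal sum is also higher in KO, at 720 to 901 against 558 to 640 CPM in untreated cells.

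Other receptors differed between genotypes in fewer conditions. Adgra3 was higher in KO in untreated cells, at 3.93, 3.44 and 3.49 against 2.34, 2.52 and 2.18 CPM (log2 0.62, edgeR FDR 0.00853; not called without KO untreated replicate 1). Adgrg1 was higher in untreated KO, at 23.6, 27.1 and 28.2 against 18.7, 22.9 and 22.2 CPM (log2 0.31, FDR 0.00942), and at 30 min of both treatments, but not at 4 h of Jurkat cells (-0.01, FDR 0.949). Gpr65 was lower in KO after 4 h of OVA, at 30.7, 32.4 and 31.7 against 42.99, 39.3 and 37.7 CPM (log2 -0.34, FDR 0.000238). Gpr84 was the only receptor called in both directions: it was lower in KO after 4 h of OVA, at 7.63, 6.97 and 8.65 against 12.7, 13.6 and 9.41 CPM (log2 -0.61, FDR 0.00111), and higher after 30 min of Jurkat cells, at 4.204, 2.22 and 3.495 against 2.19, 2.35 and 1.803 CPM (log2 0.65, FDR 0.024). In the second case the groups overlap, and the call was lost without KO 30 min Jurkat replicate 1 or 3 or WT 30 min Jurkat replicate 1 or 3. Adgrb2 was lower in KO after 30 min of Jurkat cells (log2 -0.70, FDR 0.0336; lost without replicate 1 or 3 of KO or 2 or 3 of WT), when the T-lineage sum was 130 to 144 CPM in KO and 155 to 162 CPM in WT.

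Markers of other cells moved with genotype beside these receptors. In untreated cells 5 of 8 stromal genes were called higher in KO and 0 lower (all genes: 6% higher and 3.97% lower), and the medians of all 8 were 0.45 to 0.65 (log2) over the 5 conditions. The stromal sums were 1010 to 1270 CPM in KO and 788 to 918 CPM in WT after 4 h of Jurkat cells. Mcpt8 and Cpa3 of the basophil or mast cell list were at 17.1 and 10.7 CPM in untreated KO and 3.57 and 4.14 CPM in WT, with Tpsb2 at or near 0, and Jchain of the B and plasma cell list at 13.9 and 3.92 CPM. Of the monocyte list, Ly6c2 had a mean of 43.4 CPM (untreated KO) and 117 CPM (untreated WT), beside the lower Adgre4 of KO. The 9 genes of that list together did not move this way, with sums of 2920 to 3160 CPM in untreated WT and of up to 3600 CPM (mean 3270, SD 294, n = 3) in untreated KO. The part of such cells in the receptor differences was not tested.

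An interaction term tested whether KO and WT responded differently. For 30 min of OVA edgeR called 0 receptors (7 at an unadjusted p under 0.05; DESeq2 0), against 0% of all genes. For 30 min of Jurkat cells it called 0 (4 at an unadjusted p under 0.05, 0 with DESeq2), against 0.00675%. For 4 h of OVA it called 0 (3 at an unadjusted p under 0.05, 0 with DESeq2), against 0.0405%. These percentages are of calls by FDR. Of all 14808 genes, 795, 1098 and 1098 had an unadjusted edgeR p under 0.05 in these 3 tests. For 4 h of Jurkat cells 6 receptors were called (5 with a higher and 1 with a lower value of KO minus WT), or 8.96%, against 4.26% of all genes, and DESeq2 also called 6. Among them 5 are adhesion receptors and 1 is Gpr137b. Leaving out WT 4 h Jurkat replicate 3 gave 2 calls and leaving out KO 4 h Jurkat replicate 3 gave 3.

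Adgra2 and Adgrg5 fell less in KO. With Jurkat cells for 4 h Adgra2 was at 16.97, 16.5 and 16.4 CPM in KO and 12.6, 9.03 and 11.5 CPM in WT, while in untreated cells it was at 79, 86.05 and 89.4 and 80.8, 87.97 and 89.99 CPM. Its log2 fold changes were -2.35 in KO and -2.96 in WT, which differed by 0.61 (SE 0.104, edgeR FDR 0.00107). Adgrg5 reached 4.42, 3.87 and 3.52 CPM in KO and 2.52, 3.65 and 2.43 CPM in WT, and its responses differed by 0.67 (FDR 0.019; lost without KO 4 h Jurkat replicate 1 or WT 4 h Jurkat replicate 1 or 3). Adgre5 differed by 0.31 (FDR 0.0279; log2 -1.71 in KO and -2.02 in WT). That call was lost without KO 4 h Jurkat replicate 3, KO untreated replicate 2, WT 4 h Jurkat replicate 2 or 3, or WT untreated replicate 2.

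Adgre4 rose more in KO, by 1.31 against 0.83 on the log2 scale, a difference of 0.48 (SE 0.13, edgeR FDR 0.0302). It ended near the WT level from a lower start, and the call was lost without any of 7 of the 12 libraries. Adgra3 rose less in KO, from an untreated level that was higher than in WT (log2 0.62). It reached overlapping levels of 5.78, 7.02 and 5.296 CPM in KO and 6.53, 6.01 and 7.96 CPM in WT. Its responses of 0.74 and 1.54 differed by -0.80 (FDR 0.0257). That call was lost without KO 4 h Jurkat replicate 3, KO untreated replicate 1, WT 4 h Jurkat replicate 3 or WT untreated replicate 3. The T-lineage list had a median difference of -0.60 between the same responses, against a median of -0.01 for all genes. In that list 2 of 19 genes were called lower and 0 higher, where 2.55% of all genes were called lower and 1.72% higher. Gpr137b fell in WT (-0.15, FDR 0.000592) and rose in KO (0.10, FDR 0.0114), a difference of 0.25 (FDR 0.00495). With total counts its KO value was -0.24, so the opposite directions depend on the scaling. Its reads cannot be assigned with certainty, because of the pseudogene copy.

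**Figure D5:**
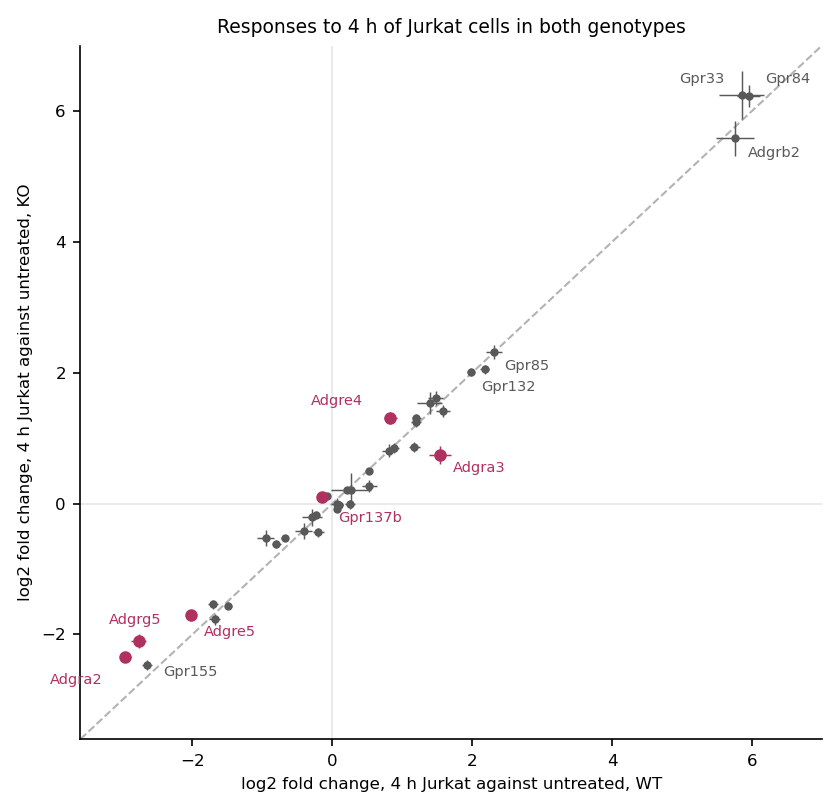
Log2 fold change after 4 h of Jurkat cells against untreated cells in WT (horizontal) and KO (vertical), with standard errors, for the receptors named in the text with a mean of at least 1 CPM. Points on the dashed line changed equally, and the 6 receptors in red, whose responses were called different by edgeR, have KO minus WT differences from -0.80 (Adgra3) to 0.67 (Adgrg5).

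Genes that act with these receptors were taken from lists by function. Of 12 G protein alpha subunits tested, 5 rose and 5 fell after 4 h of Jurkat cells in each genotype, near the 79.5% (WT) and 78.5% (KO) of all genes called, and their median was -0.10 in WT. Gna13 rose from 218, 212 and 212 to 405, 454 and 418 CPM (log2 0.99, edgeR FDR 7.88e-19), and Gnai3, an inhibitor of cyclic AMP formation, from 148 to 261 CPM (log2 0.82). No treatment with OVA moved more than 2 of the 12. Of 7 receptor kinases and arrestins tested, 1 rose and 5 fell in each genotype, while 40.6% (WT) and 41% (KO) of all genes fell. Arrb1, a beta-arrestin, fell from 248, 254 and 271 to 36.8, 33.5 and 34.5 CPM in WT (log2 -2.88, FDR 2.37e-27) and less in KO (-2.51; interaction 0.37, FDR 0.00264). The receptor kinase Grk6 fell from 239, 253 and 262 to 86.1, 78.9 and 84.98 CPM (log2 -1.59) and Grk3 rose from 312, 314 and 322 to 520.3, 553 and 506 CPM (log2 0.74).

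RGS proteins end G protein signals by speeding hydrolysis of GTP. Of 9 tested, 2 rose and 7 fell after 4 h of Jurkat cells in each genotype (all genes: 40.6% fell in WT and 41% in KO), with a median of -0.76 in WT against -0.02 for all genes. Rgs1 rose from 28.1, 21.3 and 19.1 to 747, 959 and 823 CPM (log2 5.21, edgeR FDR 1.14e-20) and had already risen at 30 min of Jurkat cells (0.96 in WT and 1.18 in KO). Rgs10 and Rgs14 fell, with log2 changes of -1.11 and -1.24 in WT. Rgs12 was higher in KO in all 5 conditions, by 0.17 to 0.29 on the log2 scale, with 41.2, 46.4 and 43.8 CPM in untreated KO and 36.6, 38.9 and 39.8 CPM in WT.

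Ligands and partners of adhesion receptors were listed apart (17 genes, 13 tested). In WT, 4 rose and 0 fell after 4 h of OVA, and 7 rose and 2 fell after 4 h of Jurkat cells, with 23.5% and 79.5% of all genes called. Cd55, the partner of Adgre5, rose from 1.05, 0.992 and 0.755 to 4.01, 3.86 and 3.11 CPM (OVA, 4 h) and 2.86, 4.31 and 3.75 CPM (Jurkat cells, 4 h), with log2 fold changes of 1.97 and 1.96, edgeR FDR 2.18e-10 and 7.18e-12, while Adgre5 fell with both. After 4 h of OVA Cd55 was lower in KO, at 1.99, 2.14 and 1.901 CPM (log2 -0.86, FDR 0.000102). Tgm2, a transglutaminase that binds Adgrg1, rose from 30.6, 27.8 and 24.1 to 50.1, 53.4 and 59.7 and 174, 178 and 166 CPM (log2 0.99 and 2.65), as Adgrg1 did with Jurkat cells. In untreated KO 3 of the 13 were called higher and 1 lower, where 9.97% of all genes were called. Among the higher was Col4a1 at 39.1 against 23.3 CPM (log2 0.74), a matrix gene that stromal cells make.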

How the data were processed

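Read counts per gene, as whole numbers, were deposited by the authors in 1 table of 30 libraries with symbols and mm10 intervals, per the file headers. The submitters' processing notes name STAR 2.5, Subread, featureCounts 1.5.0-p1 and DESeq2, without roles. The annotation is not given in the sources used here, nor is the use of strand. Libraries were made with a TruSeq RNA kit that does not mark strand, per the labels' protocols. Reads of stretches shared by genes of opposite strands thus cannot be assigned by strand, and how they were counted is not given.

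Receptor rows were taken by symbol. Counts were scaled with TMM, filtered with filterByExpr by group (14808 genes kept) and tested with the two-sided quasi-likelihood F test of edgeR 4.0.16 under R 4.3.3, in 1 fit over the 30 libraries that gives each group its mean. The common biological coefficient of variation was 0.0515. A Benjamini-Hochberg FDR under 0.05 over all genes tested was a call. Log2 fold changes carry a standard error (SE), the size of the change divided by the square root of F. Levels are CPM on TMM-scaled library sizes. Depth per library (9.73 M to 51.6 M counts) sets the floor of 3 counts, which covers counting error only, as reads carry no molecular identifiers. No pair of libraries held identical counts. Exon lengths came from GENCODE and promoters from RefSeq, both on GRCm38.

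The members and all gene lists were chosen with earlier results of these data known. Genes are named by rule: Gpr183 and Adgre5, the 12 highest receptors, the 3 largest rises and falls per contrast among calls at 1 CPM or more, receptors called the same way in at least 4 of 5 KO against WT contrasts, the 4 smallest p per interaction and Jurkat against OVA contrast, up to 3 members per list and contrast by smallest p, and role groups; a few that the rule names are not reported here. Alternatives were DESeq2 (version 1.42.0) and its size factors, total counts, no filter, a filter of 5 CPM in 3 libraries, the compared groups alone, a replicate block and leaving out each library.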

Additional observations from a re-analysis of the deposited data

Results flagged for a closer look

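The responses of 6 receptors to 4 h of Jurkat cells differed between genotypes by the interaction test (edgeR, FDR under 0.05), each given here as the KO minus WT log2 response. For Adgra2 it was 0.61 (SE 0.104, FDR 0.00107), for Adgrg5 0.67 (FDR 0.019) and for Adgre5 0.31 (FDR 0.0279), the 3 receptors that fell less in KO. For Adgre4 it was 0.48 (FDR 0.0302), a larger rise in KO from a lower start. For Adgra3 it was -0.80 (FDR 0.0257), a smaller rise in KO from a higher start. For Gpr137b it was 0.25 (FDR 0.00495), with opposite directions that depend on the scaling.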

How the results depend on the processing

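Most calls held. Over 245 called pairs of gene and contrast for 33 named receptors, 236 kept direction and call with DESeq2 and 236 with its size factors in edgeR, 238 without the filter, 222 with the compared groups alone, 228 with total counts and 213 of 219 testable under the stricter filter. The number of receptors called fell from 5 to 3 for 30 min of OVA in KO with the compared groups alone. Under the stricter filter, which tested 41 receptors, it fell from 57 to 33 for 4 h of Jurkat cells in KO and from 57 to 36 for Jurkat cells against OVA at 4 h, with fewer receptors tested.

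Gpr107 was not among the 33 receptors checked. The same holds for Adgrf5, Adgrg1, Adgrg2, Adgrg3, Adgrg6, Gpr4, Gpr18, Gpr31b, Gpr34, Gpr55, Gpr63, Gpr82, Gpr174 and Gpr180. Their separate results were not tried under these settings, though they are part of the counts of receptors called. Scaling to total counts reversed 9 of the 245 values. At 4 h of Jurkat cells in KO these were Gpr137b-ps at -0.23, Gpr137b at -0.24 and Gpr176 at -0.07, and in WT Adgrl1 at -0.15. For Jurkat cells against OVA at 4 h they were Gpr183 at -0.18, Adgre1 at -0.09, Gpr176 at -0.02, Gpr162 at -0.13 and Adgrl1 at -0.25.

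Leaving out each library in turn kept 1545 of 1788 pairs and reversed none. The receptors called ranged from 6 to 10, 8 to 16, 5 to 12, 8 to 13 and 11 to 18 in KO against WT (untreated, 30 min OVA, 30 min Jurkat, 4 h OVA and 4 h Jurkat). Treatments in the same order gave 4 to 8, 14 to 22, 18 to 20 and 47 to 51 in WT and 1 to 7, 11 to 15, 9 to 13 and 51 to 56 in KO. Interactions gave 0, 0, 0 and 2 to 6, and Jurkat cells against OVA 12 to 18 and 55 to 57.

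Same-numbered libraries had correlations of -0.118 to 0.151, and the labels do not say whether they share more than a number. In WT, each library of 30 min of Jurkat cells and of 4 h of OVA correlated best with the same-numbered untreated library (0.0125 to 0.0583). After 4 h of Jurkat cells in WT none did, and in KO and after 30 min of OVA the pattern was mixed. With the replicate block 242 of 245 pairs kept their call and 3 lost it, and with a block within genotype 182 of 184 kept it. Depth limits the 34 untested receptors, at 0.3935 CPM or less.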
